A study of Mus musculus with 6 samples.

Results

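The genes described here are those of the vascular endothelial growth factor (VEGF) family, in cultures labelled as mouse primary hepatic stellate cells. The 9 members were a given list, 3 receptor genes (Kdr, Flt4 and Flt1), 2 neuropilin genes (Nrp1 and Nrp2) and 4 ligand genes (Vegfa, Vegfb, Vegfc and Pgf), matched by symbol among the 40879 gene symbols of the count files. All 9 were found, and all 9 were among the 12776 genes with enough counts to be tested. The cells came from wild-type male mice and were kept for 24 h with APB-R3, an engineered interleukin-18 binding protein (3 libraries), or with vehicle (3 libraries), to ask whether APB-R3 attenuates stellate cell activation. The dose of APB-R3 is 150 in the labels, per ml of medium in one place and per kg in another, both in micrograms, so its unit is not settled. Nothing says that replicates were separate animals or cultures, and p-values therefore measure the spread between these libraries, which may be technical. Messenger RNA was counted near its 3' end, 1 fragment per transcript by the design of the kit, so that CPM (counts scaled to a fixed library total) can be set side by side between genes without dividing by length, although 3' ends may be captured unequally.

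VEGF ligands are secreted dimers that act through receptor tyrosine kinases on endothelial cells. Kdr (VEGFR2) carries most of the growth signal of Vegfa, Flt1 (VEGFR1) binds Vegfa, Vegfb and Pgf and also exists as a soluble trap, and Flt4 (VEGFR3) is the receptor of Vegfc on lymphatic and some blood endothelium. The neuropilins are co-receptors without a kinase, shared with class 3 semaphorins. In the liver, the receptors are known chiefly from sinusoidal endothelial cells, whose fenestrae depend on VEGF, while ligands can come from hepatocytes, stellate cells and macrophages.

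The promoter windows of the receptor genes with the highest and the lowest level and of the ligand genes with the highest and the lowest level are shown, so that the genes at the ends of the measured range can be seen beside their values. They run from 250 bases before to 50 bases after the annotated start, 5' to 3' on the gene's strand, from RefSeq on GRCm38.p6, a different build from the GRCm39 of the counts. Capitals mark matches, on either strand, to a GC box (GGGCGG), an ETS core (CCGGAA), a hypoxia response core (ACGTG) or a TATA box (TATAAA). Matches of different motifs did not overlap each other in these windows.
Kdr (chr5:75978406-75978705, minus strand): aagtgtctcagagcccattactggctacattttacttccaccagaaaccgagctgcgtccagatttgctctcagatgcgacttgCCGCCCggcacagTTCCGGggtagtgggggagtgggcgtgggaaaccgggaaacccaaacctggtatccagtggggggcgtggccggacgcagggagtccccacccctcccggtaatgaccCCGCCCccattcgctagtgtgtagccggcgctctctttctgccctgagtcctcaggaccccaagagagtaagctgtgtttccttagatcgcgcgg
Flt1 (chr5:147725962-147726261, minus strand): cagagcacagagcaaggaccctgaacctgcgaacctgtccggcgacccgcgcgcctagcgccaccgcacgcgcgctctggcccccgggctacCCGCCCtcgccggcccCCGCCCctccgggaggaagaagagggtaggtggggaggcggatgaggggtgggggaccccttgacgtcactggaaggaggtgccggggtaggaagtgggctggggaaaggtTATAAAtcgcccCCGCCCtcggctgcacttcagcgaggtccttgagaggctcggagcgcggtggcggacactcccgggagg
Pgf (chr12:85177264-85177563, minus strand): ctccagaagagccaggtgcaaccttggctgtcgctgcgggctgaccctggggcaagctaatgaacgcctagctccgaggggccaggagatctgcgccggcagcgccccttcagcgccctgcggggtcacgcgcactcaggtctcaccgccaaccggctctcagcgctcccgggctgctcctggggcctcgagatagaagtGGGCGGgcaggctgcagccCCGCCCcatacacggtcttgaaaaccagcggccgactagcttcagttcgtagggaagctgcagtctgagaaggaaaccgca
Vegfc (chr8:54077282-54077581, plus strand): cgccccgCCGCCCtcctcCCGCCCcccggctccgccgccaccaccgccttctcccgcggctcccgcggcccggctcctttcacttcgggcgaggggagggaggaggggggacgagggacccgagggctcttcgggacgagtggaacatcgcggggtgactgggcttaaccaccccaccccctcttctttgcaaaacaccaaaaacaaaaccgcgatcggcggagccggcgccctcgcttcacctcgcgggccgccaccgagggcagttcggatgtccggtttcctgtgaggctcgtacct

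The Kdr window held 2 GC boxes and 1 ETS core, the Flt1 window 3 GC boxes and 1 TATA box, and the Pgf and Vegfc windows 2 GC boxes each. Among the first listed windows of the 9 genes, 9 held a GC box, against 35.7% of all 32851 windows in the table, which include further starts. Of the further member windows, that of Vegfa held a GC box and that of Pgf held 0. The first windows were 60.7% (Kdr) to 75.3% (Vegfb) G and C, and no comparison with windows of like content was made. An ETS core stood in 1 of the 9 (Kdr; 14.9% of all windows) and a TATA box in 1 (Flt1; 13.6%). The hypoxia response core was in 0 of the 9 first windows, against 19.6% of all windows, and in 1 further Vegfa window downstream of the first. These are matches of letters and no measurement of binding.

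Transcripts of the family made up 0.252% to 0.272% of the counts of a library, and the libraries held between 8323809 and 10792531 counts. Levels spanned from 890.1 ± 62.6 CPM for Kdr to 7.99 ± 0.973 CPM for Vegfc (SD, n = 6). Kdr lay above 99.1% of the tested genes in mean level and Vegfc above 29.4%. Between these lay, in falling order of CPM, Nrp2 at 701 ± 37.5, Nrp1 at 493 ± 29.9, Pgf at 237 ± 22.1, Flt4 at 160 ± 18.9, Vegfb at 69.5 ± 7.63, Flt1 at 31.6 ± 5.32 and Vegfa at 28.5 ± 2.38. Each step of this order held in 6 of 6 libraries with ranges that did not overlap, except that from Flt1 to Vegfa. Flt1 was above Vegfa in 4 of 6 libraries, and the ratio of the pair ran from 0.859 to 1.41, so their levels did not differ beyond their spread.

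**Figure D1:**
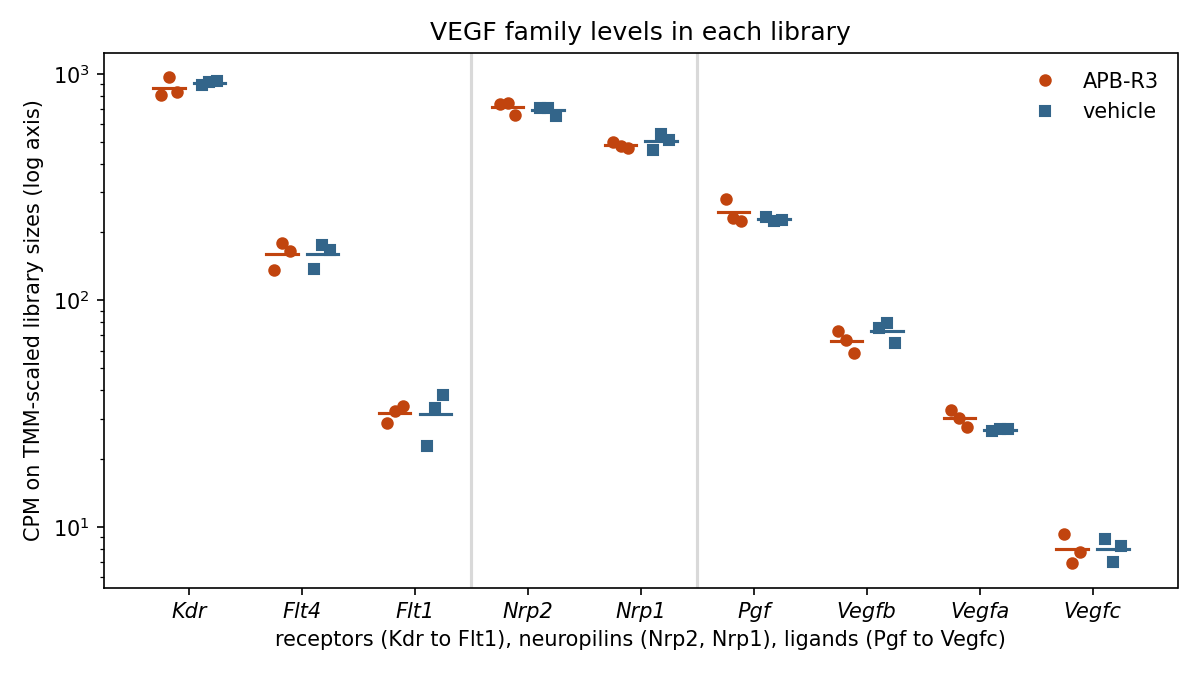
CPM of each VEGF family gene (y axis, log scale) in the 3 APB-R3 libraries (circles) and the 3 vehicle libraries (squares), with horizontal lines at the group means. The genes are spread over a range from 6.90 to 965 CPM, and the groups of each gene lie close together, with only the Vegfa groups not overlapping (the groups of 8.81% of all tested genes did not overlap).

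Although the cultures are labelled as stellate cells, the listed endothelial markers had a higher sum than the listed stellate cell markers in every library. The mean of Lyve1 alone, 1715 CPM, was above the highest stellate cell sum. This bears on every value here. The 18 endothelial markers that were listed, none of them a VEGF family gene, summed to between 7998 and 8883 CPM in APB-R3 and between 8323 and 9137 CPM in vehicle. The 17 stellate cell markers summed to between 901 and 967 CPM in APB-R3 and between 934 and 1037 CPM in vehicle. Most of that sum was Dcn, Col1a1, Col1a2 and Acta2. Over the 6 libraries the stellate cell markers averaged from 0.13 CPM (Ngfr) to 308 CPM (Dcn, a matrix proteoglycan), with a median of 11.5 CPM, and the endothelial markers from 1.45 CPM (Vwf) to 1715 CPM (Lyve1), with a median of 338 CPM. Among the stellate cell markers, Lrat, the retinol esterifying enzyme, averaged 1.68 CPM, while the collagen gene Col1a1 averaged 139 CPM and Acta2, the actin of activated stellate cells, 114 CPM. Acta2 had 97.2 ± 15.7 CPM in APB-R3 and 131 ± 2.41 CPM in vehicle (SD, edgeR adjusted p = 0.9998). Its APB-R3 libraries were all below the vehicle libraries, as for 4.38% of all tested genes. Of the 16 tested stellate cell markers, 7 were above and 9 below vehicle in fitted value. Cdh5, the endothelial cadherin, averaged 1148 CPM. The summed levels of the 12 macrophage markers ran from 472 to 668 CPM in APB-R3 and from 401 to 593 CPM in vehicle. Those of 5 cholangiocyte markers ran from 33.5 to 55.0 CPM in APB-R3 and from 36.0 to 44.6 CPM in vehicle. Most of that sum was Spp1, at a mean of 37.4 CPM, while Krt19, Sox9, Epcam and Krt7 averaged 2.65, 2.57, 0.476 and 0.299 CPM. The 10 hepatocyte markers summed to between 22.6 and 34.9 CPM in APB-R3 and between 26.2 and 125 CPM in vehicle, with the 125 CPM in vehicle replicate 2. Among 4 lymphatic endothelial markers, Ccl21a had 0 counts and Prox1 averaged 7.17 CPM. The 5 lymphocyte markers summed to at most 0.483 CPM. Fewer cells of a type and less RNA per cell cannot be told apart in such bulk libraries.

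None of the family's genes differed between APB-R3 and vehicle past the test. With edgeR's quasi-likelihood test and Benjamini-Hochberg adjustment over all 12776 genes, 0 of 9 members passed, where 0% of all tested genes did. At an unadjusted p under 0.05 there were again 0 of 9, against 3.33% of all tested genes (1.75% higher and 1.57% lower), and DESeq2 and limma-voom also gave 0 of 9 at that p and called 0 genes of all those tested after adjustment. In level, 5 members were above and 4 below vehicle, with a median log2 fold change of 0.01 over the 9 genes and of 0.003 over all tested genes. The largest fitted difference of a member was 0.16 on the log2 scale.

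**Figure D2:**
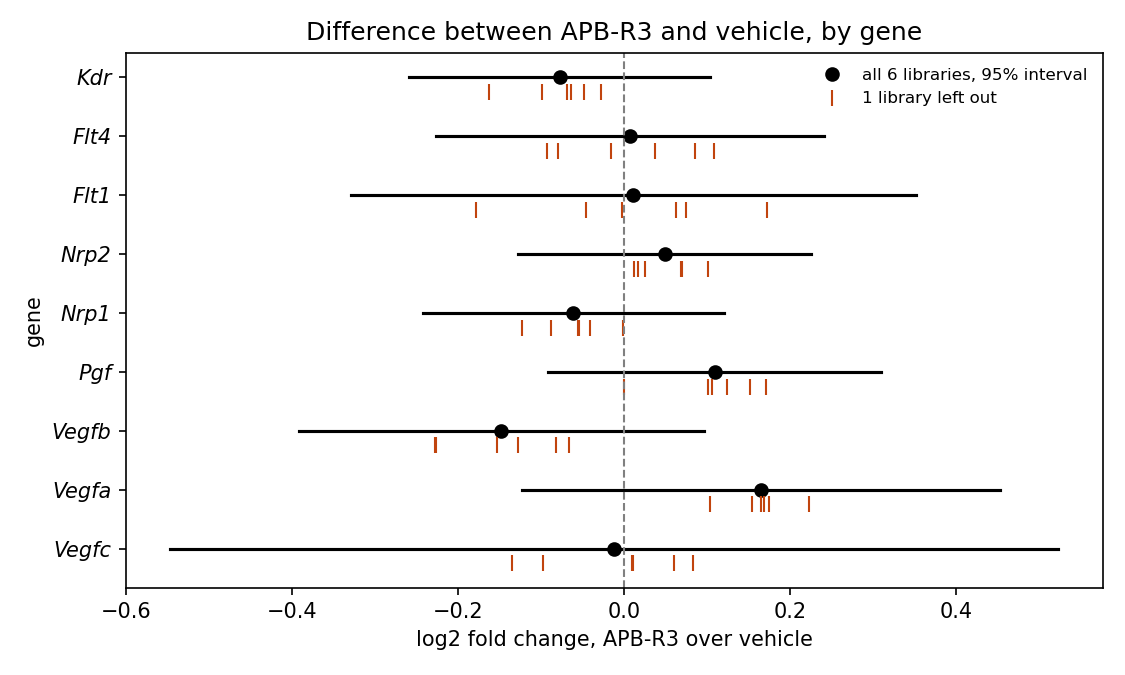
Log2 fold change of each gene, APB-R3 over vehicle (x axis), as a point with its 95% interval from edgeR, not adjusted for the number of genes; short ticks below give the value with each library left out in turn. All 9 intervals cross 0, from −0.55 to 0.52 for Vegfc, the widest, and from −0.13 to 0.23 for Nrp2, the narrowest.

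Among the receptors, Kdr was the most abundant. It had 802, 965 and 831 CPM in APB-R3 replicates 1 to 3, against 889, 921 and 932 CPM in vehicle replicates 1 to 3. The highest and both lowest values were in APB-R3, whose spread took in all of the vehicle range. The fitted fold was 0.948, with a 95% interval from 0.836 to 1.07 (edgeR adjusted p = 0.9998). The log2 fold change of −0.08 was −0.03 without APB-R3 replicate 1, where Kdr was lowest.

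Flt4 had 136, 179 and 165 CPM in APB-R3 replicates 1 to 3, and 137, 175 and 166 CPM in vehicle replicates 1 to 3. The groups overlapped almost wholly, and in each group replicate 1 was low and replicate 2 high. Its fold was 1.01, with an interval from 0.855 to 1.18.

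Flt1 was the least abundant receptor gene and the most variable member. It had 28.6, 32.4 and 34.2 CPM in APB-R3 replicates 1 to 3, against 22.8, 33.6 and 38.2 CPM in vehicle replicates 1 to 3. Vehicle held both the lowest and the highest library, with the lowest being replicate 1. The fold was 1.01, with an interval from 0.796 to 1.28, and the log2 fold change of 0.01 turned to −0.18 without vehicle replicate 1. The coefficient of variation of Flt1 over the 6 libraries was 16.8%, against 5.58% from counting error alone. In the GENCODE M21 annotation, which is on another build, Flt1 has 2 coding transcripts whose 3' ends lie 73555 bases apart. The deposited value is 1 count per gene, so the membrane-bound and the shorter form cannot be told apart.

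Kdr took 83.0%, 82.0% and 80.6% of the receptor counts in APB-R3 replicates 1 to 3, against 84.8%, 81.5% and 82.0% in vehicle replicates 1 to 3. Flt4 took between 14.1% and 16.1% in APB-R3 and between 13.1% and 15.5% in vehicle, and Flt1 between 2.75% and 3.31% in APB-R3 and between 2.17% and 3.36% in vehicle. The ranges of all 3 shares overlapped between the groups. Per count of Kdr there were 0.0368 ± 0.00391 counts of Flt1 in APB-R3 and 0.0343 ± 0.00790 in vehicle (SD, n = 3 each), a difference of 0.12 in mean log2 ratio (two-sided exact permutation p = 0.8). The Flt4 to Kdr ratio was 0.185 ± 0.0149 in APB-R3 and 0.174 ± 0.0185 in vehicle, a log2 difference of 0.09 (exact permutation p = 0.6). In all, 6 ratios were compared in this way, with a smallest p of 0.1 that 3 against 3 libraries allow, and the adjusted p over the 6 was 0.9 for each except that of Vegfa to Kdr.

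Receptor levels were also set against Cdh5 in the same library, which takes out the amount of endothelial RNA as far as that gene shows it. Kdr stood at 0.827, 0.892 and 0.649 of the Cdh5 count in APB-R3 replicates 1 to 3, and at 0.775, 0.815 and 0.729 in vehicle replicates 1 to 3. The APB-R3 libraries again lay on both sides of the vehicle range, but replicate 1 was below it in Kdr CPM and above it in this ratio. Over the 6 libraries the coefficient of variation was 10.4% for Cdh5 and 7.03% for Kdr. The log2 difference of 0.02 (exact permutation p = 0.9) changed sign without vehicle replicate 3 or without APB-R3 replicate 1 or 2. Flt1 stood at between 0.0267 and 0.0299 of Cdh5 in APB-R3 and between 0.0199 and 0.0299 in vehicle, a log2 difference of 0.14 (exact permutation p = 0.8), or −0.055 without vehicle replicate 1.

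The neuropilin genes had the smallest coefficients of variation of the 9 members. Nrp2, the co-receptor tied to Vegfc and to semaphorin 3F, had 733, 745 and 660 CPM in APB-R3 replicates 1 to 3, against 709, 705 and 653 CPM in vehicle replicates 1 to 3. Nrp1, the co-receptor tied to Vegfa and to semaphorin 3A, had 499, 479 and 469 CPM in APB-R3 replicates 1 to 3, against 460, 542 and 508 CPM in vehicle replicates 1 to 3. The groups of both genes overlapped, with folds of 1.03 (interval 0.915 to 1.17) for Nrp2 and 0.959 (0.845 to 1.09) for Nrp1. Their coefficients of variation over the 6 libraries were 5.35% and 6.07%. There were 1.48 ± 0.0744 counts of Nrp2 per count of Nrp1 in APB-R3 and 1.38 ± 0.143 in vehicle (SD, n = 3 each), a log2 difference of 0.11 (exact permutation p = 0.3). The neuropilins together took 44.8% to 47.5% of the family's counts in APB-R3 and 44.3% to 45.9% in vehicle. GENCODE M21 lists 6 coding transcripts of Nrp2 with 3 different 3' ends, among them forms that the gene count joins. It also has an antisense gene over Nrp2, Gm29083, which had 3 counts over all libraries.

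Among the ligands, Pgf, the placental growth factor that binds Flt1 and neuropilins but not Kdr, was the most abundant. It had 281, 232 and 225 CPM in APB-R3 replicates 1 to 3, against 233, 224 and 227 CPM in vehicle replicates 1 to 3. APB-R3 replicate 1 stood above the other 5 libraries, which lay within 224 to 233 CPM. The fold was 1.08 (interval 0.939 to 1.24), and the log2 fold change of 0.11 was 0.0003 without APB-R3 replicate 1. That library also had the lowest total count, the lowest summed endothelial markers (7998 CPM) and the lowest level of Kdr, and the part of these in the Pgf value was not tested.

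Vegfa, the main ligand of Kdr, had 32.6, 30.1 and 27.7 CPM in APB-R3 replicates 1 to 3, against 26.5, 27.1 and 27.0 CPM in vehicle replicates 1 to 3. All 3 APB-R3 libraries lay above all 3 vehicle libraries, the only member whose groups did not overlap; among all tested genes 4.43% lay wholly above and 4.38% wholly below, together 8.81%. The vehicle values differed by 1.15% (SD over mean), less than the 5.90% that counting error alone gives at this depth. The gap between the groups, from 27.1 CPM in vehicle replicate 2 to 27.7 CPM in APB-R3 replicate 3, was also smaller than that error. The fold was 1.12 (interval 0.918 to 1.37, edgeR adjusted p = 0.9998), and it was 1.07 when APB-R3 replicate 1, where Vegfa was highest, was left out.

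Per count of Kdr, Vegfa had 0.0407, 0.0312 and 0.0334 counts in APB-R3 replicates 1 to 3, against 0.0298, 0.0294 and 0.0290 in vehicle replicates 1 to 3. All 3 APB-R3 ratios were above all 3 vehicle ratios, a log2 difference of 0.25 with an exact permutation p of 0.1, the smallest that the design allows, and 0.6 after adjustment over the 6 ratios. Without APB-R3 replicate 1 the log2 difference was 0.13. Kdr is known chiefly from endothelial cells and the cell source of Vegfa was not measured, so cell make-up and the level per cell cannot be told apart in this ratio.

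Vegfb, a ligand of Flt1, was the second ligand gene in level. It had 73.1, 66.5 and 58.5 CPM in APB-R3 replicates 1 to 3, against 75.1, 79.2 and 64.8 CPM in vehicle replicates 1 to 3. The lowest value was in APB-R3 and the highest in vehicle, and the ranges overlapped. The fold was 0.903 (interval 0.762 to 1.07, edgeR adjusted p = 0.9998), and its log2 fold change stayed below 0 in each of 13 alternative fits, from −0.23 to −0.07.

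Vegfc, the ligand of Flt4, was the least abundant member. It had 77, 74 and 79 counts in APB-R3 replicates 1 to 3 (9.30, 6.90 and 7.71 CPM), against 92, 73 and 87 counts in vehicle replicates 1 to 3 (8.80, 6.98 and 8.25 CPM). The groups overlapped, and its coefficient of variation of 12.2% was near the 11.2% that counting error gives. At this depth its interval was wide, from 0.685-fold to 1.44-fold around a fold of 0.992. Vegfd, the other known ligand of Flt4 and no member of the list, had 4, 10 and 3 counts in APB-R3 replicates 1 to 3 and 11, 0 and 7 counts in vehicle replicates 1 to 3, too few for the test.

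Pgf took 71.0%, 69.1% and 70.5% of ligand counts in APB-R3 replicates 1 to 3, against 67.8%, 66.4% and 69.4% in vehicle replicates 1 to 3. Vegfb took 18.4%, 19.8% and 18.3% in APB-R3 and 21.9%, 23.5% and 19.8% in vehicle. Vegfa took between 8.23% and 8.98% in APB-R3 and between 7.72% and 8.26% in vehicle, and Vegfc between 2.06% and 2.42% in APB-R3 and between 2.07% and 2.57% in vehicle. The ranges of all 4 shares overlapped between the groups. These shares were not tested.

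**Figure D3:**
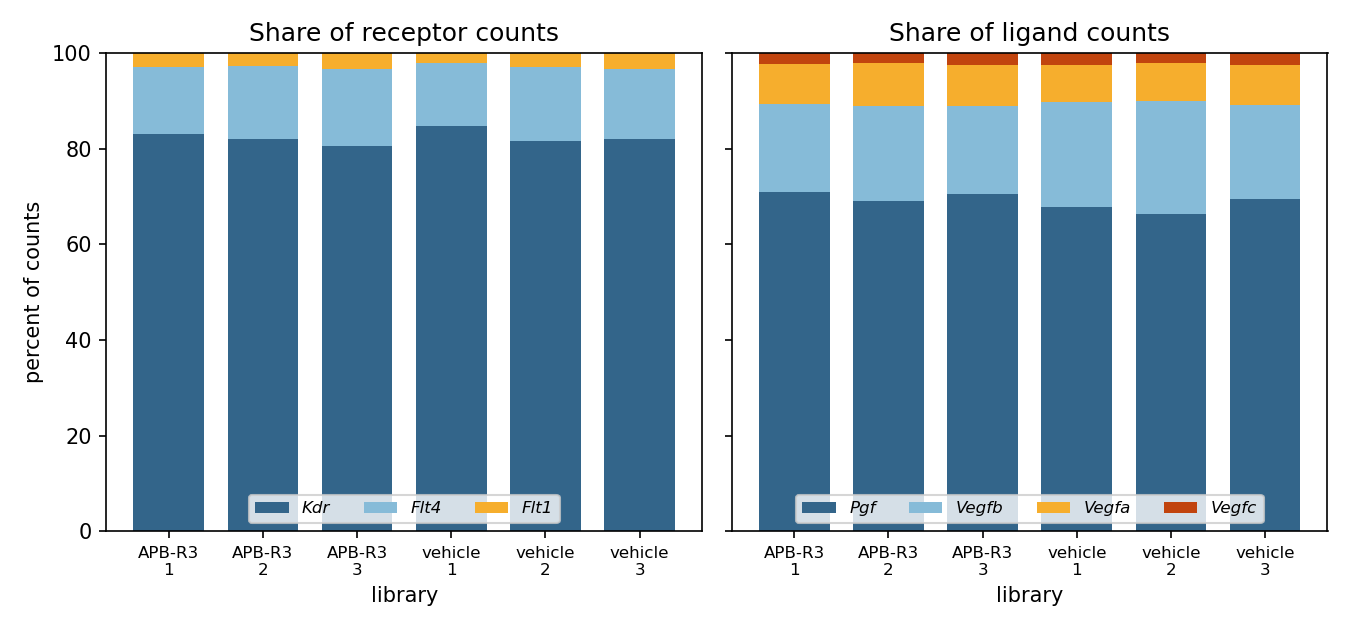
Stacked bars of the share of receptor counts (left) and ligand counts (right) taken by each gene, in percent, for each library, APB-R3 replicates 1 to 3 and then vehicle replicates 1 to 3. Kdr holds 80.6% to 84.8% of the receptor counts and Pgf 66.4% to 71.0% of the ligand counts.

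Libraries that share a replicate number in the titles had like values for some members and not for others. For Flt4, the log2 CPM of the APB-R3 library minus that of the vehicle library with the same number was −0.01, 0.03 and −0.005 for numbers 1 to 3, while libraries within a group differed by up to 0.40. For Vegfc, whose spread was near counting error, these differences were 0.08, −0.02 and −0.09, and for Nrp2 0.05, 0.08 and 0.01. For Vegfa they were 0.30, 0.15 and 0.04, and for Vegfb −0.04, −0.25 and −0.15. For Kdr they were −0.15, 0.07 and −0.17, for Nrp1 0.12, −0.18 and −0.11, for Pgf 0.27, 0.05 and −0.01 and for Flt1 0.33, −0.05 and −0.16. The largest difference within a group was 0.42 for Vegfc, 0.17 for Nrp2, 0.23 for Vegfa and 0.32 for Vegfb. It was 0.27 for Kdr, 0.24 for Nrp1, 0.32 for Pgf and 0.74 for Flt1. With the replicate number as a block in edgeR, 0 of 9 members passed either.

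**Figure D4:**
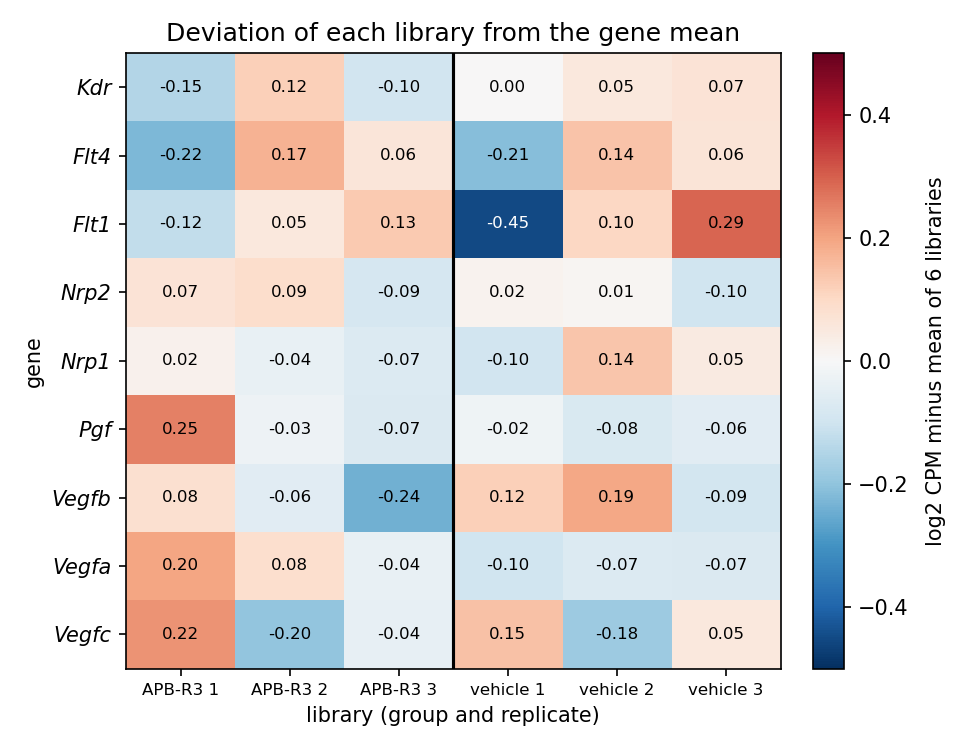
Log2 CPM of each gene in each library minus the gene's mean over the 6 libraries, as colour and number, with APB-R3 replicates 1 to 3 left of the black line and vehicle replicates 1 to 3 right of it. Flt4 is low in both libraries numbered 1 (−0.22 and −0.21) and high in both numbered 2 (0.17 and 0.14).

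Between members, Vegfa and Pgf had the smallest root mean square difference in centred log2 CPM over the 6 libraries (0.06), and Flt1 and Vegfc the largest (0.34). It is not scaled to how much each gene varies. The root mean square of the centred values themselves was 0.106 for Vegfa, 0.115 for Pgf and 0.236 for Flt1. Candidates were 6301 other genes with at least 20 CPM, without symbols such as those of predicted, clone, ribosomal and mitochondrially encoded genes. The nearest of these to each member with that level were Tbcd and Ppme1 for Kdr (0.02 and 0.03), Spty2d1 and Exoc6 for Flt4 (0.03 and 0.04) and R3hdm1 and Clec1b for Flt1 (0.10 each). They were Ythdf1 and Rbm28 for Nrp2 (0.01 and 0.02) and Robo4 for Nrp1 (0.02). For the ligands they were Prpf38b and Eif5b for Pgf (0.02 each), Usp42 and Brd7 for Vegfb (0.03 and 0.04) and Zranb2 and Zcrb1 for Vegfa (0.02 each). These rest on 6 libraries and were picked from that many genes, so a close match is a description of these libraries.

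Genes around the family were followed in 7 lists drawn from general knowledge, and in each list 0 members passed edgeR's test over all genes in either direction. Of 36 genes of receptor signalling, all tested, 15 were above and 21 below vehicle in fitted value, with a median log2 fold change of −0.02 and 1 gene at an unadjusted p under 0.05, where 3.33% of all tested genes were. That gene was Shc1, an adaptor of receptor tyrosine kinases, with 42.4, 43.1 and 41.8 CPM in APB-R3 replicates 1 to 3, against 46.4, 58.3 and 48.4 CPM in vehicle replicates 1 to 3 (log2 fold change −0.27, SE 0.12). The APB-R3 libraries were all below the vehicle libraries, as for 4.38% of all tested genes. Plcg1, the phospholipase that binds activated Kdr, had few counts and averaged 1.79 ± 0.751 CPM in APB-R3 and 3.46 ± 0.378 CPM in vehicle.

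Of 26 regulators of the receptors, 25 were tested, 10 above and 15 below vehicle, with a median of −0.04 and 0 at an unadjusted p under 0.05. The smallest p was that of Ptprb, the endothelial phosphatase that associates with the Cdh5 protein, with 679 ± 99.2 CPM in APB-R3 and 766 ± 69.4 CPM in vehicle. Next was Ptpn11, the phosphatase SHP2, with 113 ± 5.11 CPM in APB-R3 and 123 ± 12.0 CPM in vehicle (SD, n = 3 each). Cdh5, Ptprb and Clec14a of this list are also among the endothelial markers.

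Of 25 genes that VEGF is known to induce in endothelial cells, 24 were tested, 10 above and 14 below vehicle, with a median of −0.07. At an unadjusted p under 0.05, 2 were above and 2 below, where 1.75% of all tested genes were above and 1.57% below. Rcan1, a calcineurin inhibitor that VEGF induces through NFAT, had 20.1, 28.0 and 28.1 CPM in APB-R3 replicates 1 to 3, against 28.7, 39.7 and 35.4 CPM in vehicle replicates 1 to 3 (log2 fold change −0.44, SE 0.16, edgeR adjusted p = 0.9998). Its APB-R3 values were all below those of vehicle, as for 4.38% of all tested genes. Ptgs2, the inducible cyclooxygenase, had 23.1, 18.6 and 22.7 CPM in APB-R3 replicates 1 to 3, against 14.9, 11.6 and 18.1 CPM in vehicle replicates 1 to 3 (log2 fold change 0.53, SE 0.19, edgeR adjusted p = 0.9998). The APB-R3 libraries were all above the vehicle libraries, as for 4.43% of all tested genes. Both genes also respond to signals other than VEGF.

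Of 17 regulators of Vegfa transcription and mRNA decay, all tested, 11 were above and 6 below vehicle, with a median of 0.05 and 1 gene at an unadjusted p under 0.05, where 3.33% of all tested genes were. Zfp36l2, which promotes decay of AU-rich messages, had 24.5 ± 2.87 CPM in APB-R3 and 31.5 ± 3.05 CPM in vehicle, and Egln2, an oxygen-sensing prolyl hydroxylase, had 76.0 ± 5.30 CPM in APB-R3 and 66.6 ± 4.23 CPM in vehicle. Of 15 hypoxia-inducible genes, 8 were above and 7 below, with a median of 0.03 and 0 at an unadjusted p under 0.05. Pdk1, a kinase that holds back pyruvate oxidation, had 47.6 ± 2.03 CPM in APB-R3 and 40.9 ± 3.19 CPM in vehicle, and Pfkfb4 averaged 1.62 ± 0.936 CPM in APB-R3 and 2.99 ± 0.767 CPM in vehicle.

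Of 17 genes of ligand processing and release from matrix, 14 were tested, 6 above and 8 below vehicle, with a median of −0.01 and 1 gene at an unadjusted p under 0.05, where 3.33% of all tested genes were. Mmp9, the gelatinase that can free matrix-bound VEGF, had 37.0, 22.1 and 27.2 CPM in APB-R3 replicates 1 to 3, against 20.6, 16.5 and 11.1 CPM in vehicle replicates 1 to 3 (log2 fold change 0.84, SE 0.21, edgeR adjusted p = 0.9998). Its APB-R3 values were all above those of vehicle, as for 4.43% of all tested genes. Mmp14, a membrane-bound protease, had 572 ± 55.3 CPM in APB-R3 and 510 ± 29.5 CPM in vehicle. Of 12 semaphorins and plexins that pair with neuropilins, 10 were tested, 4 above and 6 below, with a median of −0.02 and 0 at an unadjusted p under 0.05. Plxna1, a plexin that signals for semaphorins bound to neuropilin, had 33.7 ± 2.55 CPM in APB-R3 and 38.5 ± 1.98 CPM in vehicle, and Sema3g had 3.71 ± 1.01 CPM in APB-R3 and 5.18 ± 1.73 CPM in vehicle.

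**Figure D5:**
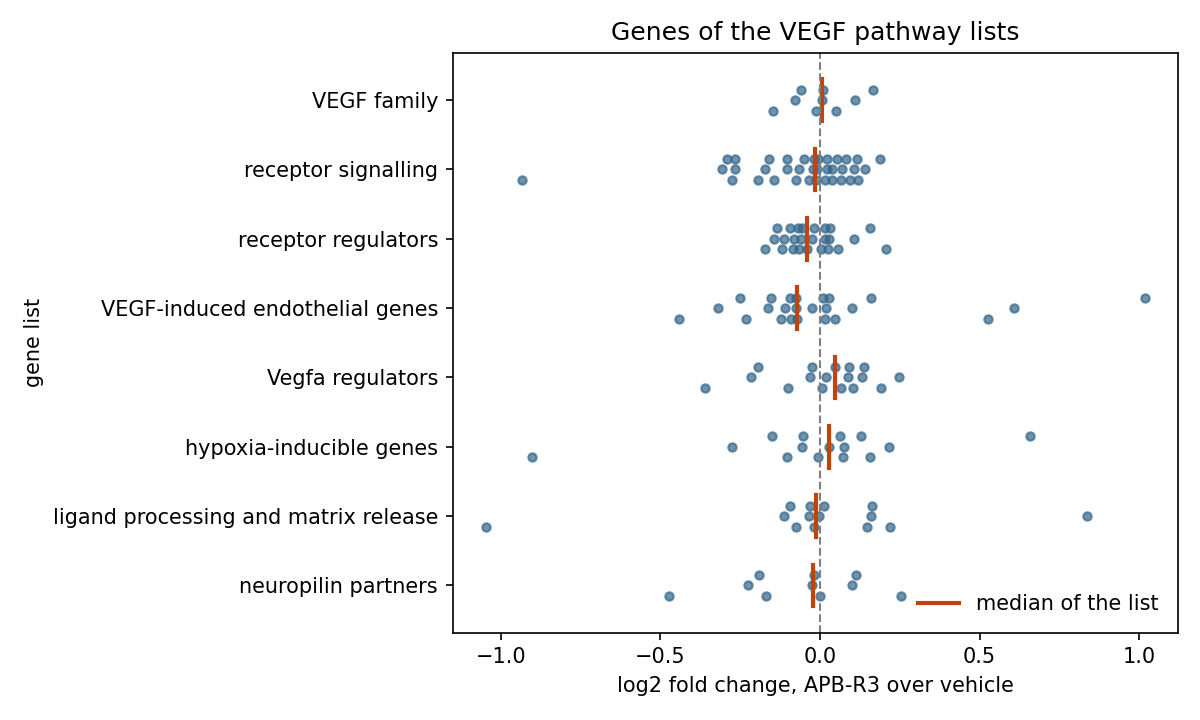
Log2 fold change, APB-R3 over vehicle (x axis), of each tested gene (points) in the VEGF family and in the 7 lists around it, with a vertical bar at each list's median. The medians lie between −0.07 and 0.05, and no point passed the test over all genes.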

How the data were processed

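Libraries were made with the Lexogen QuantSeq kit from total RNA, per the labels' protocols. Reads were handled with bcl2fastq 2.20.0.422, fastp, STAR and HTSeq on GRCm39, per the submitters' processing notes. Not given in the sources used here were annotation, strand setting and use of molecular identifiers. Each deposited file holds the raw counts of 1 library per gene symbol. Numbers in the file headers are 1 above those in the titles, and titles were used.

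Counts were fitted in edgeR 4.0.16 (R 4.3.3) over all genes kept by filterByExpr (minimum count 10, minimum total 15), with TMM factors, treatment as the only term, two-sided tests and Benjamini-Hochberg adjustment (threshold 0.05). CPM are on TMM-scaled library sizes. Standard errors are the absolute log2 fold change over the root of the F statistic. Ratios of 2 genes used log2 of counts plus 0.5 and an exact permutation test. No library was a copy of another (chi-square per degree of freedom of 5.75 to 14.5 between pairs). Pairs that included APB-R3 replicate 1 ran from 10.2 to 14.5, and all other pairs from 5.75 to 9.26. That library thus differed most from the others over all genes. Deviations from the group mean correlated weakly between same-numbered libraries (0.123, 0.135 and 0.154 over genes of at least 20 CPM). Between libraries of different number the correlations ran from −0.108 to −0.0347. Deviations within a group sum to 0, so same-number values above 0 push these below 0, and they add no separate evidence. No label states a pairing by number, and it was not tested. Alternatives were DESeq2 1.42.0 with its size factors or Wald test, limma-voom (limma 3.58.1), library size alone, other count filters, a replicate block, a pseudocount of 5 and each library left out. The code was tested on simulated counts.

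Members and lists were chosen with earlier results of these data known. Named list genes are, where none passes, the 2 with the smallest p per list, and genes of like course are the 2 nearest per member, of which 1 is not reported here. RefSeq promoters matched 9 of 9 members.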

Additional observations from a re-analysis of the deposited data

How the results depend on the processing

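Of the 9 members, 0 passed in any of 13 alternative fits, with adjusted p between 0.902 and 0.99998. Kdr, Nrp1, Nrp2, Vegfa, Vegfb and Pgf kept their direction in all 13, which share their libraries. Yet Nrp1 was at only −0.0008 without vehicle replicate 2, and Pgf at only 0.0003 without APB-R3 replicate 1. Over the fits with a library left out, the log2 fold change ran from −0.178 to 0.172 for Flt1, from −0.0928 to 0.109 for Flt4 and from −0.136 to 0.0836 for Vegfc. Flt1 and Flt4 turned to values below 0 without vehicle replicate 1 (−0.178 and −0.0928), APB-R3 replicate 2 (−0.0026 and −0.080) or APB-R3 replicate 3 (−0.046 and −0.016). Vegfc turned to values above 0 without vehicle replicate 1 (0.060), vehicle replicate 3 (0.0099), APB-R3 replicate 2 (0.0836) or APB-R3 replicate 3 (0.010). Over all genes, 0 passed, but 20 passed with no low-count filter and between 0 and 1 with a library left out. Genes at an unadjusted p under 0.05 numbered 425, 695 with no filter and 368 to 674 with a library left out. The 1125 genes whose groups do not overlap became 2267 to 2772 with a library left out, as 5 libraries leave fewer values to overlap. With the replicate block 0 genes passed and 539 were at an unadjusted p under 0.05; the block changed no call. With a library left out, the log2 difference ran from −0.0765 to 0.262 for Flt1 to Kdr, −0.0766 to 0.153 for Kdr to Cdh5 (−0.024 without vehicle replicate 3, −0.022 without APB-R3 replicate 1), −0.0552 to 0.238 for Flt1 to Cdh5, 0.001 to 0.15 for Flt4 to Kdr, 0.06 to 0.19 for Nrp2 to Nrp1 and 0.13 to 0.33 for Vegfa to Kdr. The cause of these shifts was not tested. Depth limits Vegfc most, whose spread is near counting error, and counting errors given here take each count as 1 molecule.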
